A study of Mus musculus with 16 samples.

Results

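The response of the F/F mouse colon to 3 days of dextran sulfate sodium (DSS) was read from 8 of the 16 RNA sequencing libraries of the study, the 4 made from F/F mice given DSS and the 4 made from F/F mice given water, which the deposited table heads as wild type. F/F mice carry the label wild type for genotype and served as the controls of DIEC mice, in which the corepressor NCoR1 is deleted in intestinal epithelial cells. All were C57BL/6 mice of 8 weeks. One group drank water (naive) and the other drank 2.5% DSS and was sampled on day 3. Every library is a pool of 3 mice. The 12 mice of a group thus enter as 4 pools, and replicate error here means variation among pools. The comparison asks what a short course of DSS changes in colon that has its NCoR1, and all 24421 genes of the table were members, of which 18267 were measured well enough to be tested.

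The colon lining is a single sheet of epithelium folded into crypts. Stem cells at the crypt base divide and feed a zone of rapidly cycling progenitors, whose daughters become absorptive colonocytes that take up sodium, chloride and water, or secretory cells such as mucus-making goblet cells. DSS is a sulfated polysaccharide that is toxic to this lining and is used as a model of colitis, in which epithelial injury and crypt changes come before ulcers and heavy infiltration by leukocytes. The samples were whole colon, so muscle, nerves, connective tissue and immune cells contributed RNA as well. In such bulk RNA, fewer cells of a type and less RNA per cell cannot be told apart.

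The libraries held 22502529 to 27547730 reads on genes in the naive group and 26363572 to 34733832 in the DSS group. On the first principal component of the 8 libraries, with 52.1% of the variance, the naive libraries lay from -53.2 to -38.9 and the DSS libraries from 32.6 to 59.5. On the second, with 11%, the libraries naive 2 (-41.3) and naive 4 (39.9) stood at opposite ends. Epithelial markers were abundant in all libraries, for example the adhesion molecule Epcam, at 44241, 47183, 44392 and 45904 in naive 1 to 4 and 49039.8, 51294, 43491 and 47123 in DSS 1 to 4. The naive libraries also held pancreatic enzyme transcripts, with the 9 acinar genes tested making up 0.0867%, 0.0427%, 0.197% and 0.431% of the values in naive 1 to 4 against 0.0394% to 0.0521% in the DSS libraries. Much of the latter was Cela1, an elastase at 13243, 9739.5, 13149 and 24519.5 in naive and 13447, 10108, 12912 and 11861 in DSS. Adipocyte markers summed to between 57.1% and 133% of their naive mean in the naive libraries and to between 37.4% and 52% in the DSS libraries. Some mast cell markers stood apart in naive 4, where the protease Mcpt1 was at 927 against 51.9 to 59.8 in the other 3, while the mast cell genes Cma1 and Hdc lay within the range of the others.

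Of the 18267 genes tested, 2982 rose with DSS (16.3%) and 5205 fell (28.5%) by limma at an adjusted p under 0.05 on the deposited scale, 44.8% in all. The unit is reads per gene after each library was scaled to the same sum. After rescaling by the trimmed mean of M values (TMM), which moved the median gene up by 0.1 on the log2 scale, 4173 rose (22.8%) and 4115 fell (22.5%), 45.4% in all, so the share of calls that were higher went from 36.4% to 50.3%. Changes of about that size therefore depend on the scaling, and the list counts are given with those after TMM. Every list count below is to be read beside these shares of all genes tested. The 4 DSS libraries lay above all 4 naive libraries in 15.5% of genes and below them in 27.4%. Large changes were mostly downward: among called genes 1052 fell and 170 rose at least 2-fold, and 256 fell and 6 rose at least 4-fold.

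**Figure D1:**
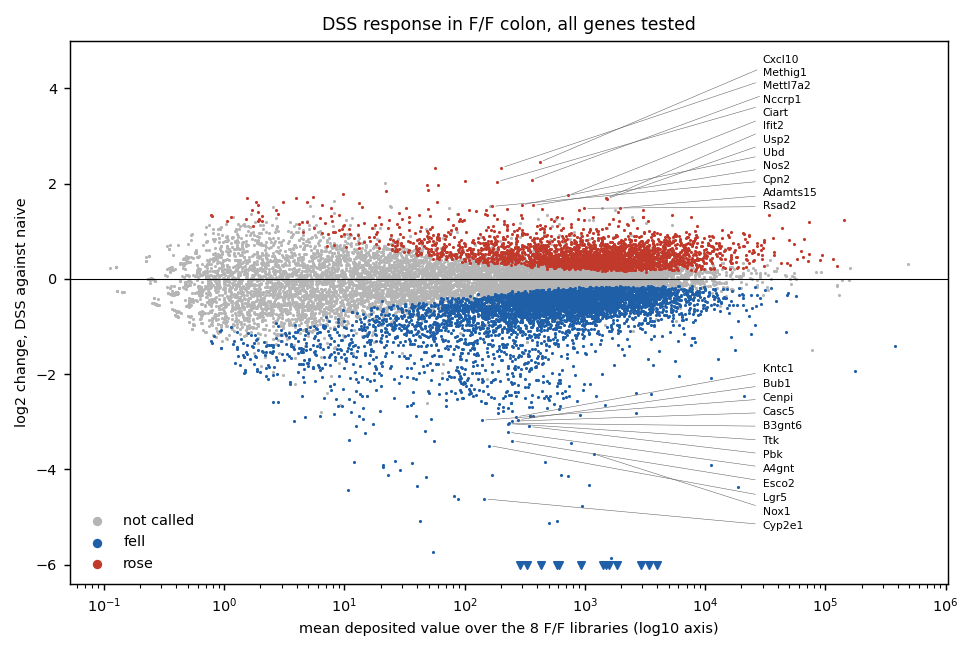
Each point is 1 of the 18267 genes tested, with its mean deposited value over the 8 F/F libraries (log10 axis) against its log2 change with DSS in F/F colon. Red points rose, blue points fell (limma adjusted p under 0.05) and grey points were not called, and symbols mark the 12 largest rises among genes with a mean of at least 100 in either group and the 12 largest falls among genes within 3-fold across the naive libraries. The downward arm reaches further than the upward one, and genes with a log2 change under -6 are drawn as triangles at that value.

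The 12 largest falls that the naming rule gave were all products of the exocrine pancreas, such as pancreatic lipase Pnlip and the trypsinogen Prss2. Pnlip was at 1419, 13.5, 5905 and 16226 in naive 1 to 4 and at 0 in every DSS library. Naive 4 held the most and naive 2 very little, so the group mean rests on 3 libraries. When genes whose naive libraries spread by 3-fold or more were passed over, a choice made after seeing these values, the 12 largest falls were Cyp2e1, Nox1, Lgr5, Esco2, A4gnt, Pbk, Ttk, B3gnt6, Casc5, Cenpi, Bub1 and Kntc1. They include the stem cell receptor Lgr5, the epithelial NADPH oxidase Nox1, a pair of transferases that build mucin glycans (A4gnt and B3gnt6) and the mitotic genes Esco2, Pbk, Ttk, Casc5, Cenpi, Bub1 and Kntc1. The cytochrome P450 Cyp2e1, at 330.1, 138, 319 and 285 in naive and 42.3, 47.4, 0.89 and 1.9 in DSS, was lowest in the same DSS libraries, 3 and 4, as the adipocyte hormone Adipoq (81.6, 45.9, 3.54 and 2.85 in DSS 1 to 4). Whether attached fat carried it was not tested.

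Promoters of genes from 4 groups are shown first, because each group is known for a short DNA motif near its start sites. The sequences are RefSeq promoters of build GRCm38.p6, read 5′ to 3′ on the gene's strand, with the motif in capitals. Among 32851 promoters of 250 bases before to 50 after a start, 1.56% held an E2F motif, searched as TTTCCCGC or TTTGGCGC on both strands, and 11 of 33 promoters of the DNA replication list did (33.3%), 6 of them in the 250 bases before the start. E2F factors drive genes of the G1 to S transition. The replicative helicase subunit Mcm6 (chr1:128359706-128359860, minus strand), the licensing factor Cdc6 (chr11:98907968-98908077, plus strand) and the polymerase alpha subunit Pola1 (chrX:93632229-93632338, minus strand) fell together, by log2 changes of -1.99, -2.16 and -2.12.
Mcm6: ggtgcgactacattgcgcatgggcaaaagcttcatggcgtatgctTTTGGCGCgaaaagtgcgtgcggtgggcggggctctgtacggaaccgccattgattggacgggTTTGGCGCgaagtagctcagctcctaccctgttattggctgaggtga
Cdc6: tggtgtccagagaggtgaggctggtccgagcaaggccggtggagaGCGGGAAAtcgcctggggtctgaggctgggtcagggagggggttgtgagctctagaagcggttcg
Pola1: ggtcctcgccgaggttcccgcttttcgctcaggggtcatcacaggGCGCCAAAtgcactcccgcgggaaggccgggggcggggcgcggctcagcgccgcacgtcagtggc
The endoplasmic reticulum stress element (ERSE), searched as CCAAT and CCACG with 9 bases between them, was in 0.119% of all promoters and in 8 of 19 promoters of the ER chaperone list (42.1%). It is read by ATF6 and XBP1 together with NF-Y. Shown are Hspa5 (BiP; chr2:34771995-34772074, plus strand), Hsp90b1 (GRP94; chr10:86705502-86705686, minus strand, with 2 matches) and Pdia6 (chr12:17266461-17266540, plus strand), which all fell.
Hspa5: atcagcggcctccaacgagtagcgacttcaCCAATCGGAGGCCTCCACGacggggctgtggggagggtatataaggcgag
Hsp90b1: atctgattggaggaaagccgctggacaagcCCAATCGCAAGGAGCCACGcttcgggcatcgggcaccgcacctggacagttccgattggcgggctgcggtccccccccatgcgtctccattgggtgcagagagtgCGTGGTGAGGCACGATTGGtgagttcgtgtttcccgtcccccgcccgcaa
Pdia6: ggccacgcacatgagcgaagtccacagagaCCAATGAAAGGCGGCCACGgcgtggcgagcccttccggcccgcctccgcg
The core of the interferon-stimulated response element (ISRE), searched as GAAA, 2 bases and GAAA, was in 3.44% of all promoters. It was in 8 of 13 promoters of the interferon gamma list (61.5%) and in those of Cxcl10 (chr5:92349038-92349139, minus strand) and Rsad2 (chr12:26456508-26456617, minus strand), both among the 12 largest rises.
Cxcl10: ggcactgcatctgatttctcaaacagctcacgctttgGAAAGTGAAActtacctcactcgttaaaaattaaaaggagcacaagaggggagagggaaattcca
Rsad2: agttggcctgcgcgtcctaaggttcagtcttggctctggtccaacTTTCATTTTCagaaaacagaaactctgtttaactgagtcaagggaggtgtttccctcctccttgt
The E-box CACGTG, bound by CLOCK and BMAL1, was in 7.15% of all promoters and in those of the clock repressors Per1 (chr11:69098743-69098842, plus strand) and Ciart (chr3:95882229-95882384, minus strand), the latter with 3 matches in the stretch shown. Per1 and Ciart are examples, and no share over a list is given for this motif.
Per1: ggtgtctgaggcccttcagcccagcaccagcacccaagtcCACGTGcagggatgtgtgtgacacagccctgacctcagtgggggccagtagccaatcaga
Ciart: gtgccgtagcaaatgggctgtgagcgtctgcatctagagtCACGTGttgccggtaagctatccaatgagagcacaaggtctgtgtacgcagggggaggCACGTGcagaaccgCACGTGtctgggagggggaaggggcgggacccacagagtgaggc
Each match is a description of these letters and not evidence that a factor was bound. The mitosis list had no E2F match in 27 promoters, which says only that these letters were not in these windows.

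Genes of the cell cycle fell as a block and had the lowest medians of the 40 pathway lists. All 32 DNA replication genes fell (31 on the TMM scale) and their median log2 change was -1.52. All 30 mitosis genes fell under either scaling and their median was -2.4, beside -0.11 over all genes tested. Pcna, the sliding clamp of DNA polymerases (mm9 chr2:132075022-132078916, minus strand), was at 1435, 1691, 1788 and 1546 in naive 1 to 4 and at 584, 515, 649.6 and 786 in DSS 1 to 4. Every DSS library lay below every naive library (log2 change -1.36 ± 0.11, adjusted p = 2.6e-07, where ± gives the standard error, here and below). Top2a, the topoisomerase that untangles sister chromatids (mm9 chr11:98854261-98885503, minus strand), was at 3259.9, 6854, 5576 and 2973 in naive and 882, 308, 522 and 1049 in DSS (-2.82 ± 0.39, adjusted p = 8.2e-05). Its naive libraries differed more than 2-fold, with naive 2 and 3 high, and DSS 2 was the lowest of all.

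Within replication, the MCM subunits of the helicase that opens DNA fell by between 1.25 (Mcm2) and 2.21 (Mcm5) on the log2 scale, and its GINS subunits by between 0.64 (Gins4) and 1.91 (Gins1). Rrm1, the large subunit of ribonucleotide reductase, was at 2152, 3219, 3054 and 2467 in naive and 702, 596, 736 and 1109.8 in DSS (-1.81 ± 0.15, adjusted p = 6.6e-07), and the polymerase subunit Pola1 at 570.5, 732, 733 and 616 in naive and 125, 113, 147 and 250.1 in DSS (-2.12 ± 0.18, adjusted p = 3e-07). For Rrm1 and Pola1 the groups did not overlap, and DSS 4 was the highest DSS library. Pold1, the catalytic subunit of polymerase delta, changed least (-0.53 ± 0.19, adjusted p = 0.027) and lost its call after TMM rescaling (-0.43, adjusted p = 0.06), and on the deposited scale the call ended without DSS 1, DSS 2, naive 2, naive 3 or naive 4, with an adjusted p of up to 0.091.

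In mitosis, the kinetochore genes Ndc80 and Nuf2 and the kinesin of chromosome alignment Cenpe showed one pattern. Ndc80 was at 245, 507, 375 and 196 in naive and 77.6, 26.8, 43.4 and 63.7 in DSS (-2.63 ± 0.34, adjusted p = 1.7e-05), and Nuf2 at 307, 592, 451 and 244 in naive and 84.6, 28.3, 49.6 and 86.5 in DSS (-2.71 ± 0.39, adjusted p = 6.3e-05). Cenpe was at 728, 1590.5, 1028 and 613 in naive and 268, 113, 142 and 219 in DSS (-2.39 ± 0.32, adjusted p = 3.9e-05). In all of them naive 2 was the highest library and DSS 2 the lowest. Incenp, a scaffold of the chromosomal passenger complex, fell least (-0.62).

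The summed levels show how the pools varied. The mitosis list summed to 74.2%, 151%, 113% and 61.3% of its naive mean in naive 1 to 4 and to 28.9%, 9.83%, 16.3% and 29.6% in DSS 1 to 4. The replication list summed to 82.3%, 103%, 116% and 98.5% in naive and to 32.9%, 27.7%, 39% and 53.5% in DSS. Mitosis genes were thus spread more widely than replication genes within both groups, and DSS 2 was lowest for both lists. Lgr5, the receptor of crypt base stem cells, was at 289, 321, 307 and 209.8 in naive and 30.2, 4.59, 21.3 and 93.2 in DSS, again lowest in DSS 2 and highest in DSS 4.

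**Figure D2:**
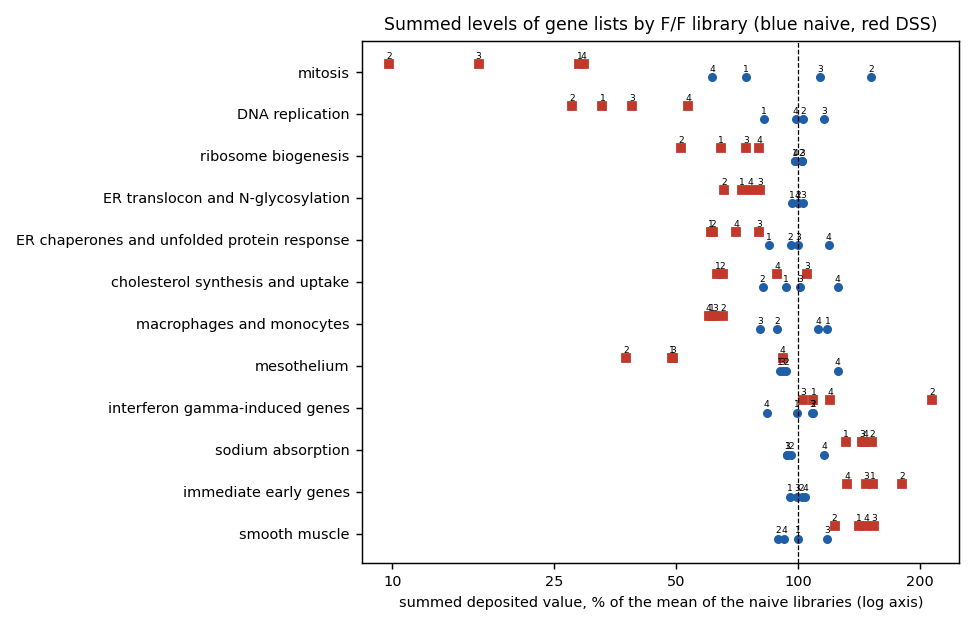
Summed deposited values of 12 gene lists in each of the 8 F/F libraries, as a percent of the list's mean over the naive libraries (log axis; the dashed line is 100%). Blue circles are naive and red squares DSS libraries, with the library number beside each. Mitosis and replication sums lie below 60% in all DSS libraries, while smooth muscle, immediate early and sodium absorption sums lie above 120%.

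Ribosome biogenesis, which builds the capacity for protein synthesis in growing cells, fell with less depth. Of 30 genes, 20 fell and 1 rose (18 and 1 after TMM), with a median log2 change of -0.55. Dkc1, the pseudouridine synthase of box H/ACA particles, was at 1129.7, 1326, 1159 and 1080.0 in naive and 499, 377, 537 and 637 in DSS (-1.21 ± 0.12, adjusted p = 8.7e-07). Nop58, of box C/D particles, was at 2492, 2543, 2567 and 2554 in naive and 1145, 931, 1355 and 1450.3 in DSS (-1.08 ± 0.11, adjusted p = 9.9e-07), and the nucleolar chaperone Npm1 at 3072, 3073, 2687 and 2608 in naive and 1570.3, 1343, 1611 and 1871 in DSS (-0.84 ± 0.09, adjusted p = 1.6e-06). The naive libraries were close together here, unlike in mitosis, and DSS 2 was again lowest. Bysl, a factor of the small subunit, was the gene that rose (0.45 ± 0.17, adjusted p = 0.042), and the call ended without DSS 3, DSS 4, naive 1, naive 2, naive 3 or naive 4, with an adjusted p of up to 0.14. The transcription factor Myc, an activator of many of these genes, fell (-0.56 ± 0.17, adjusted p = 0.01).

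Enzymes that make serine and asparagine fell alongside. Asns, asparagine synthetase, was at 1206, 1643, 1691 and 1560.5 in naive and 507, 399, 543 and 592 in DSS (-1.58 ± 0.12, adjusted p = 2e-07). Phgdh, the first enzyme of serine synthesis, was at 113, 163, 173 and 134 in naive and 32.2, 26, 32.8 and 42.8 in DSS (-2.1 ± 0.26, adjusted p = 6.9e-06), and Psat1, the second, at 351, 587, 617 and 457 in naive and 144, 131, 189.6 and 199.7 in DSS (-1.58 ± 0.18, adjusted p = 2.1e-06). These are targets of ATF4 in the integrated stress response, of whose 22 genes 10 fell and 3 rose (7 and 5 after TMM). Those that rose were Ppp1r15a, Ddit4 and Atf5, known as stress-induced regulators, so the list did not move as a unit. For Ppp1r15a the call ended without DSS 2, DSS 3, DSS 4, naive 1, naive 2 or naive 3, with an adjusted p of up to 0.085. Atf4 itself was at 5818, 5479.9, 6344 and 5966 in naive and 5469, 5037, 6977 and 6044 in DSS and was not called. Of 23 p53 targets 5 rose and 7 fell (5 and 4 after TMM), beside 16.3% and 28.5% over all genes tested. The arrest gene Cdkn1a (p21) was at 6956, 7421, 8166 and 9204 in naive and 8074, 10115, 9442 and 8218 in DSS and was not called (0.18 ± 0.11, adjusted p = 0.19), and Ccng1, cyclin G1, fell (-0.63 ± 0.09, adjusted p = 1.4e-05).

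The machinery that moves proteins into the endoplasmic reticulum (ER) fell broadly. Of 30 genes of the translocon, signal peptidase and N-glycosylation, 24 fell (23 after TMM), with log2 changes between -1.64 and 0.1 and a median of -0.59. Spcs3, a subunit of signal peptidase (mm9 chr8:55605787-55615351, minus strand), was at 4086, 4074, 4243 and 4086 in naive and 2199, 1969, 2340.4 and 2528 in DSS. The naive libraries were nearly level and every DSS library lay far below them (-0.87 ± 0.07, adjusted p = 3.1e-07). Ssr3, of the translocon-associated complex, was at 10368, 10822, 10983 and 10161 in naive and 5875, 5013, 6337 and 6201 in DSS (-0.86 ± 0.08, adjusted p = 6.6e-07). Stt3a, the catalytic subunit of the oligosaccharyltransferase that works on chains as they enter, was at 6491, 7048, 6851 and 6835 in naive and 4121, 3457, 4142 and 4259 in DSS (-0.77 ± 0.07, adjusted p = 7e-07). Its paralog Stt3b, which acts after entry, was at 5939, 5671, 6102 and 6286 in naive and 5878, 5775, 6186 and 5733 in DSS and was not called (-0.03 ± 0.07, adjusted p = 0.8). The channel subunit Sec61a1 was not called either (-0.12 ± 0.09, adjusted p = 0.34).

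ER chaperones fell too, with more variation between libraries. Of 23 genes of ER folding and the unfolded protein response, 14 fell (11 after TMM). Pdia6, a disulfide isomerase, was at 8847, 11776, 11996 and 12730.0 in naive and 4134, 3629.9, 5976 and 5557 in DSS (-1.25 ± 0.14, adjusted p = 3.7e-06). Dnajc3, a cochaperone of BiP, was at 6225, 6778, 7046 and 7624 in naive and 3651, 3527, 4456 and 3925 in DSS (-0.83 ± 0.09, adjusted p = 1.5e-06). BiP itself, Hspa5, ranged from 24995 to 47143 in naive libraries and overlapped with DSS 3 at 25315. Of the genes for degradation in the same organelle, Edem1 fell (-0.2 ± 0.07, adjusted p = 0.023), but not after TMM (-0.1, adjusted p = 0.31), and the call ended without DSS 3, DSS 4 or naive 3, with an adjusted p of up to 0.078. Herpud1, Syvn1 and Sel1l were not called, with log2 changes of 0.23, 0.3 and 0.1, although Syvn1 rose after TMM (0.4, adjusted p = 0.01). Cytosolic and mitochondrial chaperones split as well: Hsp90aa1 (-1.17 ± 0.15, adjusted p = 1.4e-05) and the mitochondrial Hspd1 (-1.1 ± 0.15, adjusted p = 2.1e-05) fell, whereas the inducible Hspa1b rose (1.46 ± 0.35, adjusted p = 0.004) with its cochaperone Bag3 (0.67 ± 0.11, adjusted p = 0.00011). Hspa1a and Hspa1b are near-identical copies, so their split of reads is uncertain.

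Enzymes that extend mucin glycans fell while the mucin Muc2 was not called. Of 27 mucin and mucin glycan genes tested, 14 fell and 3 rose (12 and 6 after TMM). C1galt1, which makes the core 1 structure, was at 2896, 3313, 3117 and 3098 in naive and 1899.6, 1914, 1542 and 1714 in DSS (-0.82 ± 0.09, adjusted p = 1.5e-06). Its dedicated chaperone Cosmc, C1galt1c1, was at 2273, 2482, 2423 and 2293 in naive and 1345, 1293, 1254 and 1334 in DSS (-0.86 ± 0.09, adjusted p = 1.4e-06). B3gnt6, the core 3 synthase of colon goblet cells, fell furthest, from 235, 275, 644 and 516 to 56.4, 30.6, 31 and 81.8 (-3.03 ± 0.38, adjusted p = 2.4e-05). The groups were apart in all 3 genes. B3gnt7, which extends lactosamine chains, went the other way, from 25073, 16108, 15571 and 20457 to 57142, 49396, 48035 and 38227 (1.33 ± 0.16, adjusted p = 8.9e-06), as did the membrane mucin Muc1 (1.11 ± 0.16, adjusted p = 2.5e-05). Of the other membrane mucins, Muc4 fell (-0.97 ± 0.22, adjusted p = 0.0022) and Muc13 was not called (0.14 ± 0.10, adjusted p = 0.27). Muc2, the gel-forming mucin, was at 104757, 139743, 227161 and 72629 in naive and 112251, 89116, 120399 and 128859 in DSS, a wide spread in which the DSS values lay inside the naive ones (-0.16 ± 0.30, adjusted p = 0.7). The goblet cell regulator Spdef fell (-0.57 ± 0.15, adjusted p = 0.005), while Atoh1, which sets the secretory fate, was not called (-0.09 ± 0.10, adjusted p = 0.52).

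Genes of chloride secretion fell and several of surface absorption rose. In the crypt machinery of secretion, Slc12a2, the cotransporter that loads chloride, was at 11995, 11398, 10446 and 10276 in naive and 4080.3, 3268, 4598 and 5277 in DSS (-1.38 ± 0.13, adjusted p = 6.9e-07). Cftr, the apical chloride channel (mm9 chr6:18120687-18272769, plus strand), was at 5418, 6000.5, 4780.4 and 4839.6 in naive and 2512, 1727, 2450.3 and 2551 in DSS (-1.2 ± 0.18, adjusted p = 8.5e-05). For both genes every DSS library lay below every naive library. The potassium channel subunit Kcne3, which supports secretion, fell (-0.54 ± 0.21, adjusted p = 0.046), a call that ended after TMM rescaling (-0.44, adjusted p = 0.084). In contrast, genes of surface absorption rose, such as the chloride-bicarbonate exchanger Slc26a3 (from 54268, 55032, 44338 and 65593 to 63062, 88922, 75799 and 73619; 0.46 ± 0.14, adjusted p = 0.013), carbonic anhydrase Car2 (0.83 ± 0.15, adjusted p = 0.00026) and the colonic proton-potassium pump Atp12a (from 24008, 26400.1, 21626 and 39978 to 38567, 75502, 63207 and 57016; 1.06 ± 0.23, adjusted p = 0.0015). Slc26a3 in DSS 1 lay within the naive range, and Atp12a in DSS 1 below naive 4. For Slc26a3 the call ended without DSS 2 or naive 3, with an adjusted p of up to 0.052, and for Kcne3 the call ended without DSS 1, DSS 2, naive 1, naive 2 or naive 4, with an adjusted p of up to 0.14. Over the list of 19 transporters of chloride, potassium and bicarbonate, 9 rose and 4 fell (10 and 3 after TMM). Car12, a membrane carbonic anhydrase, fell (-1.91 ± 0.28, adjusted p = 9.6e-05) and Slc4a2, a basolateral anion exchanger, rose (0.47 ± 0.07, adjusted p = 4.6e-05).

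Most genes of aldosterone-responsive sodium absorption rose, 11 of 16 against 2 that fell (13 and 1 after TMM), with a median log2 change of 0.55. Hsd11b2, which keeps glucocorticoids off the mineralocorticoid receptor (mm9 chr8:108042646-108047888, plus strand), was at 8305, 7091, 6854 and 7809 in naive and 13224, 13173, 15506 and 13797 in DSS (0.89 ± 0.09, adjusted p = 1.5e-06). Scnn1a, the alpha subunit of the epithelial sodium channel, was at 5712, 5354, 5621 and 6949.9 in naive and 9859, 10337, 9833 and 10110.1 in DSS (0.77 ± 0.08, adjusted p = 1.9e-06). Both showed a clean gap between the groups. The subunits Scnn1b (0.69 ± 0.19, adjusted p = 0.0087) and Scnn1g (0.73 ± 0.31, adjusted p = 0.075) were lower in level and more variable, and Scnn1g was not called by limma but was after TMM rescaling (0.83, adjusted p = 0.047). Atp1b1, the beta subunit of the sodium pump, was at 48959, 48531, 46410.2 and 58079 in naive and 65495, 81282, 75626 and 80358 in DSS and rose (0.58 ± 0.11, adjusted p = 0.00022), with no overlap. Slc9a3, the sodium-proton exchanger NHE3, was at 2323, 7044, 5906 and 5019 in naive and 1996, 2628, 1475 and 3921 in DSS. Its call (-1 ± 0.38, adjusted p = 0.046) ended after TMM rescaling (-0.9, adjusted p = 0.078), and naive 1 lay among the DSS libraries. On the deposited scale the call ended without DSS 1, DSS 2, DSS 3, naive 2, naive 3 or naive 4, with an adjusted p of up to 0.13.

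**Figure D3:**
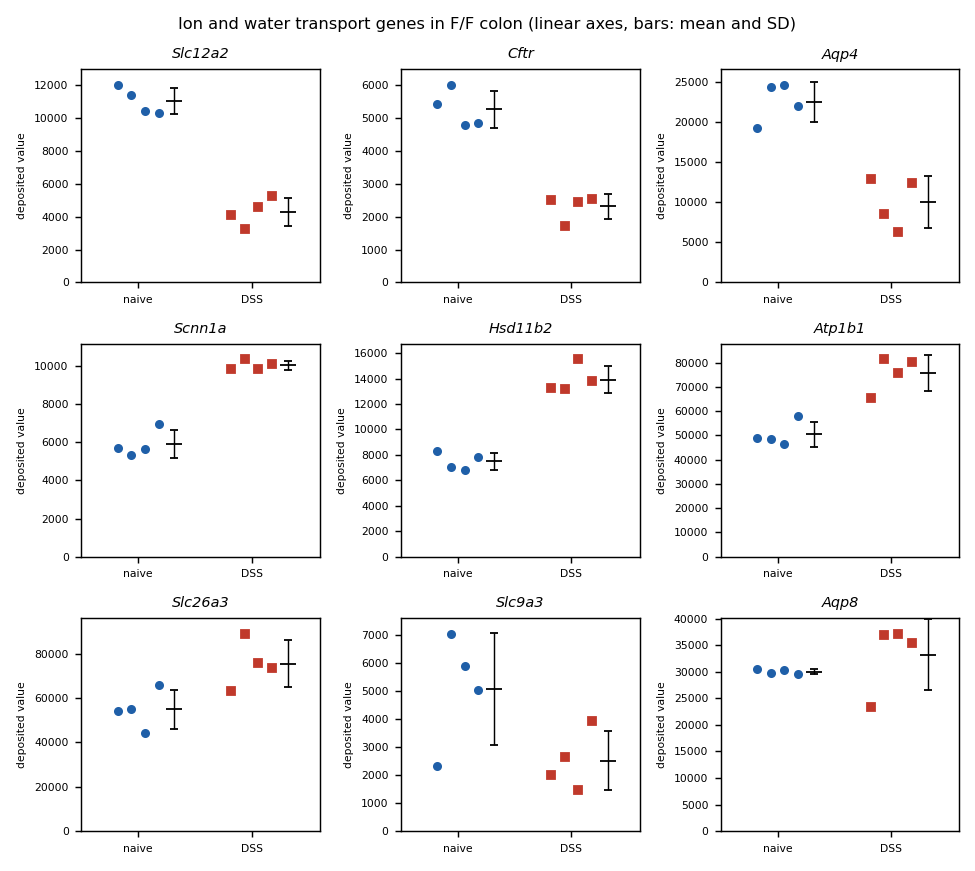
Deposited values of 9 transport genes in each F/F library (linear axes from 0), naive libraries as blue circles and DSS libraries as red squares with bars at the group means and whiskers of 1 SD (n = 4). Slc12a2, Cftr and Aqp4 are lower in every DSS library, and Scnn1a, Hsd11b2 and Atp1b1 are higher in every DSS library.

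Water channels, guanylin and butyrate genes were mixed. Over all genes tested 16.3% rose and 28.5% fell (22.8% and 22.5% after TMM). Aqp4, a basolateral water channel of colonocytes, was at 19222, 24358, 24605 and 21991 in naive and 12937, 8556, 6243 and 12409.6 in DSS (-1.22 ± 0.22, adjusted p = 0.0004), whereas the apical Aqp8 was at 30501, 29771, 30328 and 29550.3 in naive and 23333, 36974, 37161 and 35442 in DSS and was not called (0.12 ± 0.19, adjusted p = 0.65). Of 8 aquaporins 3 fell (2 fell and 1 rose after TMM). The guanylin precursor Guca2a fell (-0.79 ± 0.21, adjusted p = 0.0065) while its receptor Gucy2c rose by a small amount (0.28 ± 0.08, adjusted p = 0.0091). Prkg2, the kinase downstream of that receptor, was at 98.8, 124, 166 and 149 in naive and 44.3, 33.6, 11.5 and 72.3 in DSS (-1.94 ± 0.40, adjusted p = 0.0011). Among 12 butyrate genes 3 rose and 3 fell (4 and 3 after TMM): the short-chain fatty acid receptor Ffar2 fell (-1.56 ± 0.18, adjusted p = 3.2e-06) and the oxidation enzyme Acads rose (0.52 ± 0.09, adjusted p = 0.00014).

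Brush border genes of the epithelium rose more often than they fell, while claudins went both ways. Of 20 brush border genes 9 rose and 5 fell (13 and 2 after TMM). Cdhr5, a protocadherin that links microvilli, was at 15124, 14826, 16443 and 18349.8 in naive and 28995, 33208, 29398 and 28996 in DSS (0.9 ± 0.09, adjusted p = 9.9e-07). The myosins Myo1a (0.84 ± 0.11, adjusted p = 7.9e-06) and Myo1d (0.83 ± 0.10, adjusted p = 6.3e-06) and the scaffold Ush1c (0.61 ± 0.08, adjusted p = 1.5e-05) also rose, each with all DSS libraries above all naive ones. Tmigd1, a brush border adhesion protein, went against them and fell from 602, 1182, 1344 and 1074 to 125, 251, 59.4 and 340.5 (-2.66 ± 0.49, adjusted p = 0.00077). Of 11 claudins, Cldn3 (0.76 ± 0.11, adjusted p = 2.8e-05) and Cldn7 (0.34 ± 0.08, adjusted p = 0.0019) rose and Cldn2 (-1.68 ± 0.35, adjusted p = 0.0016) and Cldn15 (-1.42 ± 0.22, adjusted p = 0.00011) fell, with 2 rises and 4 falls in all (3 and 3 after TMM). The other falls were Cldn5 (-0.46 ± 0.11, adjusted p = 0.0024) and Cldn12 (-0.22 ± 0.08, adjusted p = 0.029), and Cldn12 lost its call after TMM. Cldn1 (-0.19 ± 0.20, adjusted p = 0.47) and Cldn4 (0.32 ± 0.19, adjusted p = 0.18) were not called. Cldn2 was at 5084, 5198, 4438 and 4815 in naive and 1581, 687, 1437 and 3412 in DSS, lowest in DSS 2 and highest in DSS 4, the order seen for Lgr5.

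Several transcription factors of the epithelium rose. Klf4, of differentiated colonocytes and goblet cells, was at 9957, 9003, 10467 and 12515 in naive and 19469.7, 17459, 14914 and 15391 in DSS (0.68 ± 0.11, adjusted p = 8.8e-05). Klf5, more often tied to proliferating crypt cells, rose as well, from 4482, 3524, 3386 and 4790.0 to 8692, 7484, 6472 and 5725 (0.81 ± 0.13, adjusted p = 8.7e-05). Sox4 fell (-1.12 ± 0.14, adjusted p = 8.3e-06), and Cdx1 (0.6 ± 0.09, adjusted p = 2.2e-05) and Hnf4a (0.39 ± 0.08, adjusted p = 0.00059) rose. Of 24 Notch and lineage regulators 7 rose and 4 fell under either scaling. The shares over all genes tested were 16.3% and 28.5%, or 22.8% and 22.5% after TMM. Elf3, an epithelial factor, was at 10811, 11024, 10814 and 11162 in naive and 19414, 25567, 21556 and 21164 in DSS (0.99 ± 0.09, adjusted p = 5.1e-07), with no overlap between the groups.

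Among signals between epithelium and stroma, the Hedgehog ligands Ihh and Shh went in opposite directions and targets of that pathway fell. Ihh, the Hedgehog ligand of differentiated colonocytes, was at 1946, 1482, 1709.9 and 2037 in naive and 3327, 3782, 3410.1 and 2843 in DSS (0.9 ± 0.12, adjusted p = 8.9e-06). Shh, at a far lower level, fell from 7.86, 15.4, 29.5 and 21.7 to 3.02, 6.88, 4.43 and 5.71 (-1.61 ± 0.35, adjusted p = 0.00097). The Hedgehog targets in stroma fell: Gli1 was at 399.8, 247, 273 and 391 in naive and 140.0, 90.2, 128 and 143 in DSS (-1.37 ± 0.23, adjusted p = 0.00011), with Ptch1 (-0.66 ± 0.17, adjusted p = 0.0044) and Hhip (-1.01 ± 0.28, adjusted p = 0.0081). Groups did not overlap for Ihh, Shh, Gli1, Ptch1 or Hhip. Bmp2, made by surface cells, rose from 1564, 1039, 1236 and 1714 to 2800.1, 4150.5, 3105 and 2329.9 (1.15 ± 0.19, adjusted p = 0.00023), while of the BMP targets Id2 fell (-0.6 ± 0.11, adjusted p = 0.00029) and Id1 (-0.05 ± 0.11, adjusted p = 0.72), Id3 (-0.19 ± 0.12, adjusted p = 0.22) and Smad6 (-0.12 ± 0.15, adjusted p = 0.55) were not called. Smad7, an inhibitor that the pathway induces, was called higher after TMM rescaling (0.3, adjusted p = 0.0071) and not on the deposited scale. The stromal ligands Bmp5 (-1.14 ± 0.21, adjusted p = 0.00043) and Wnt2b (-1.02 ± 0.27, adjusted p = 0.0049) and Foxl1, the factor of the telocytes under the epithelium (-1.76 ± 0.28, adjusted p = 6.2e-05), fell too. Of the 30 genes of these 3 pathways 5 rose and 9 fell (8 and 9 after TMM). On the deposited scale these shares were near those of all genes tested, 16.3% and 28.5%. After TMM the shares of all genes tested were 22.8% and 22.5%.

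Immediate early genes, which respond within minutes to growth factors or stress, rose in 17 of 27 (18 after TMM), with a median log2 change of 0.66. Csrnp1 was at 441, 370.1, 382 and 454 in naive and 939, 883, 762 and 786 in DSS (1.03 ± 0.11, adjusted p = 1.9e-06). Zfp36, which destabilises cytokine messages, was at 2740.0, 2984, 2814 and 2781 in naive and 3642, 5317, 4715 and 4509 in DSS (0.67 ± 0.10, adjusted p = 4.8e-05), and the AP-1 subunit Fosl2 at 5182, 5293, 4933 and 6485 in naive and 9657, 8599, 7880.0 and 6494 in DSS (0.57 ± 0.11, adjusted p = 0.00038). The groups were clearly apart for Csrnp1 and Zfp36, and for Fosl2 naive 4 and DSS 4 nearly met. The better known members Egr1 (1.23 ± 0.49, adjusted p = 0.059) and Nr4a1 (1.28 ± 0.63, adjusted p = 0.12) had larger changes but varied more within the groups and were not called, although Egr1 was after TMM (1.33, adjusted p = 0.042).

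Glucocorticoid-induced genes rose in 9 of 21 and fell in 2 (11 and 2 after TMM). Per1, both a glucocorticoid target and a clock repressor, was at 2113, 1217, 1588 and 2234 in naive and 3878, 4885, 4271 and 4155 in DSS (1.3 ± 0.16, adjusted p = 1.5e-05). Bcl6, a repressor (0.8 ± 0.14, adjusted p = 0.00018), and Glul, glutamine synthetase (0.58 ± 0.11, adjusted p = 0.00032), rose as well. Fkbp5, a chaperone that restrains the receptor, was at 2762, 4851, 4297 and 3900.2 in naive and 4393, 7728, 8418 and 6744 in DSS (0.78 ± 0.24, adjusted p = 0.016), and the call ended without DSS 3 or naive 1, with an adjusted p of up to 0.052. The receptor gene Nr3c1 fell by a smaller amount (-0.39 ± 0.08, adjusted p = 0.00071). Among the 12 largest rises were the clock repressor Ciart and the deubiquitinase Usp2. Ciart was at 601, 166, 204 and 504 in naive and 943, 1258, 1129 and 990.0 in DSS (1.75 ± 0.38, adjusted p = 0.002) and Usp2 at 894, 515, 556 and 897 in naive and 1334, 2999, 2564 and 2397 in DSS (1.68 ± 0.25, adjusted p = 0.00013). For Ciart, Usp2 and Per1 alike, naive 1 and 4 were higher than naive 2 and 3, and every DSS library was above all of them.

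Genes of inflammation gave mixed calls on day 3. Over all genes tested 16.3% rose and 28.5% fell (22.8% and 22.5% after TMM). Of 23 NF-kB targets and feedback genes 5 rose and 2 fell (7 and 1 after TMM). Those that rose were the feedback and subunit genes Bcl3 (0.78 ± 0.12, adjusted p = 5.7e-05), Tnip1 (0.69 ± 0.12, adjusted p = 0.0001), Relb (0.51 ± 0.09, adjusted p = 0.00011), Nfkb2 (0.57 ± 0.12, adjusted p = 0.00076) and Tnfaip3 (0.34 ± 0.10, adjusted p = 0.0062). The cytokine genes had low values: Il1b was at 60.6, 75.2, 73.2 and 71.3 in naive and 80.6, 57.3, 70.9 and 82.7 in DSS, and Tnf at 87.6, 94.5, 97.9 and 72.3 in naive and 97.7, 109, 121 and 101 in DSS. Neither was called, and their groups overlapped. Ptgs2, the inducible prostaglandin synthase, was at 175, 244, 201 and 149 in naive and 200.4, 152, 229 and 190.2 in DSS (0.01 ± 0.38, adjusted p = 0.98). Nos2, inducible nitric oxide synthase, rose from 122, 217, 310.4 and 143 to 579, 526, 448 and 620.0 (1.54 ± 0.49, adjusted p = 0.022), with no overlap, but the call ended without DSS 4, naive 1 or naive 4, with an adjusted p of up to 0.064. Of 10 neutrophil genes tested 2 rose and 2 fell under either scaling. Ltf, lactoferrin of granules, was at 5.61, 10.6, 11.8 and 8.27 in naive and 33.2, 46.6, 28.4 and 31.4 in DSS (1.85 ± 0.35, adjusted p = 0.00031). Ly6g, a surface protein, rose too, from 5876, 4610, 4005 and 5261 to 6273, 10331, 8071 and 8138 (0.72 ± 0.21, adjusted p = 0.013). Its level was far above that of every other gene of the list, and which cells its reads came from was not tested. Retnlg was at 30.3, 15.4, 26 and 14.5 in naive and at 0 in every DSS library, and Mpo, myeloperoxidase, fell from 14.6, 12.5, 10.6 and 5.17 to 5.04, 1.53, 1.77 and 0.95 (-1.88 ± 0.47, adjusted p = 0.0029). The calprotectin genes S100a8 and S100a9 were below 11 in all 8 libraries and were not called.

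Interferon genes rose in one DSS pool more than in the others. Cxcl10, a chemokine of T cells and the largest rise that the naming rule gave, was at 125, 130.1, 118 and 86.8 in naive and 462, 1506, 572 and 378 in DSS (2.45 ± 0.43, adjusted p = 0.00044). Ifit2, which binds viral RNA, was at 493, 787, 853 and 442 in naive and 1343, 4679, 1106 and 2274 in DSS (1.69 ± 0.57, adjusted p = 0.03), and Rsad2 at 387, 599, 609 and 317 in naive and 806, 3014, 1024 and 1109 in DSS (1.48 ± 0.48, adjusted p = 0.025). Ubd, a ubiquitin-like modifier, was at 126, 139, 126 and 143 in naive and 285, 982, 251 and 333 in DSS (1.55 ± 0.48, adjusted p = 0.017). In all of them the groups did not overlap and DSS 2 held more than 2 times the value of the next DSS library. For Ifit2 the call ended without DSS 2, DSS 4, naive 1 or naive 4, with an adjusted p of up to 0.092. For Rsad2 the call ended without DSS 2, naive 1 or naive 4, with an adjusted p of up to 0.071. Of the 20 interferon gamma-induced genes 0 were called by limma, while 3 had an unadjusted p under 0.05. After TMM rescaling 1 was called, on the recovered reads edgeR and DESeq2 each called 5, and voom called 3. The list summed to 83.6% to 109% of its naive mean in naive and to 109%, 214%, 103% and 120% in DSS 1 to 4.

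**Figure D4:**
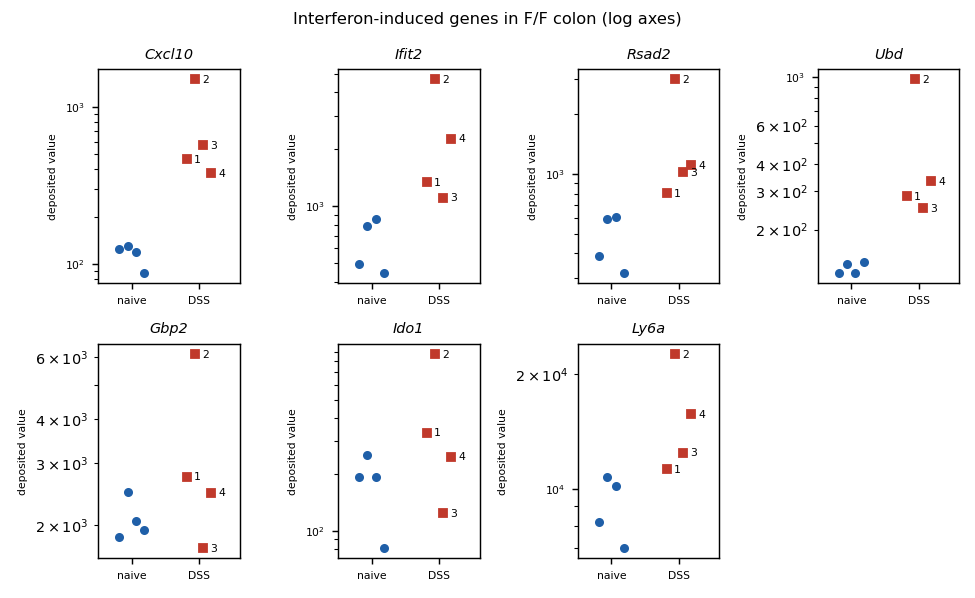
Deposited values of 7 interferon-induced genes in the F/F libraries (log axis), naive as blue circles and DSS as red squares, with the library number beside each DSS point. Library DSS 2 is the highest in all 7 panels, and DSS 3 lies within or below the naive range for Gbp2 and Ido1.

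Genes of energy metabolism rose and fell within the same pathways. Of 30 genes of oxidative phosphorylation and the TCA cycle, 7 rose and 13 fell (11 and 8 after TMM), with changes from -0.5 to 0.68. Complex I subunits were among those that fell, for example Ndufs1 at 6579, 6969, 6371 and 7262 in naive and 4878, 4719, 4658 and 4959 in DSS (-0.5 ± 0.07, adjusted p = 1.1e-05). TCA cycle enzymes rose: citrate synthase Cs was at 19195, 19313, 19831 and 21367 in naive and 30205, 31881, 30328 and 29539 in DSS (0.61 ± 0.08, adjusted p = 1.5e-05) and Ogdh at 8208, 8516, 8535 and 9610.0 in naive and 14477, 14599, 14496 and 12205 in DSS (0.68 ± 0.09, adjusted p = 1.6e-05). All 3 had groups that were apart. Glycolytic and hypoxia-inducible genes rose in 7 of 26 and fell in 4 (9 and 2 after TMM). Aldoa, aldolase, was at 23716, 20490.3, 21243 and 24271 in naive and 33954, 36792, 37413 and 37043 in DSS (0.7 ± 0.09, adjusted p = 6.8e-06), and Hk2 (0.72 ± 0.12, adjusted p = 0.00012) and the glucose transporter Slc2a1 (0.56 ± 0.09, adjusted p = 4.3e-05) rose, whereas Ldha (-0.03 ± 0.12, adjusted p = 0.87) and Vegfa (0.08 ± 0.11, adjusted p = 0.56) were not called.

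Cholesterol synthesis was lower in DSS pools 1 and 2 than in 3 and 4. Of 24 genes 9 fell and 1 rose (5 and 3 after TMM), and the list summed to 81.7% to 125% of its naive mean in naive and to 63.2%, 65.1%, 105% and 88.6% in DSS 1 to 4. Stard4, a sterol carrier, was at 4777, 4134, 4642 and 5850.3 in naive and 3233, 2793, 3130.0 and 2887 in DSS (-0.68 ± 0.11, adjusted p = 6.2e-05), apart between groups. Srebf2, which activates these genes, rose (0.47 ± 0.11, adjusted p = 0.0023). Mlxipl, the carbohydrate-responsive factor ChREBP, fell from 972, 977, 1015 and 1076 to 539.9, 409.8, 603 and 673 (-0.88 ± 0.13, adjusted p = 2.1e-05), while the lipogenic enzymes Fasn (0 ± 0.22, adjusted p = 0.99) and Acly (0.09 ± 0.16, adjusted p = 0.68) were not called.

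Antioxidant genes went both ways, and among the peroxidases Prdx6 rose while Gpx2 fell. Prdx6, a peroxiredoxin with phospholipase activity and a very abundant transcript here, was at 101361, 78507, 73959.6 and 83159 in naive and 161276, 229286, 226099 and 180561 in DSS (1.24 ± 0.13, adjusted p = 1.2e-06). Osgin1, induced by oxidative stress, rose from 768, 577, 769 and 826 to 1102, 1586, 1670.5 and 1619.5 (1.02 ± 0.13, adjusted p = 1.2e-05). Gpx2, the epithelial glutathione peroxidase of crypts, was at 9643, 14773, 11974 and 10389 in naive and 4104, 3368, 5062 and 6593 in DSS (-1.32 ± 0.18, adjusted p = 3.2e-05). In all 3 genes the groups were apart. Of the 25 genes of the NRF2 and antioxidant list 6 rose and 7 fell (7 and 4 after TMM). Over all genes tested 16.3% rose and 28.5% fell (22.8% and 22.5% after TMM). Nqo1 fell (-0.69 ± 0.19, adjusted p = 0.0063) while Hmox1 was at 384, 326, 313 and 468 in naive and 254, 855, 688 and 299.6 in DSS and was not called. Of the NADPH oxidases, Nox1 was at 1962, 2660.4, 2326 and 1723 in naive and 227, 51.2, 146 and 439 in DSS (-3.68 ± 0.49, adjusted p = 6.4e-05), and its activator Noxa1 fell with it (-1.02 ± 0.12, adjusted p = 5.1e-06). Duox2, an inducible oxidase of the surface, was not called (-0.36 ± 0.26, adjusted p = 0.29).

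The epidermal growth factor ligands Hbegf and Areg rose. Hbegf was at 268, 416, 451 and 219 in naive and 655, 943, 727 and 714 in DSS (1.21 ± 0.24, adjusted p = 0.00076) and Areg at 495, 405, 457 and 506 in naive and 655, 1201, 1285 and 1106 in DSS (1.15 ± 0.24, adjusted p = 0.0016). The receptor Egfr fell (-0.44 ± 0.10, adjusted p = 0.00096), as did Adam17, the protease that sheds these ligands (-0.41 ± 0.07, adjusted p = 8.5e-05), while Erbb2 rose (0.6 ± 0.15, adjusted p = 0.0044). Over the list of 16 genes 5 rose and 4 fell (6 and 2 after TMM). Beside this list and the next ones, 16.3% of all genes tested rose and 28.5% fell (22.8% and 22.5% after TMM). Of 17 wound-associated epithelial genes 4 rose and 2 fell (4 and 2 after TMM). Ly6a, of regenerating epithelium, was at 8152, 10707, 10157 and 6971 in naive and 11266, 22593, 12431 and 15719 in DSS (0.75 ± 0.24, adjusted p = 0.021), but the call ended without DSS 2, naive 1 or naive 4, with an adjusted p of up to 0.065, whereas Clu, at 2173, 2124, 2188 and 1301 in naive and 3293, 4342, 6777 and 3564 in DSS, was not called (1.18 ± 0.64, adjusted p = 0.16). Itga2, an integrin that binds collagen, fell from 481, 554, 638 and 577 to 248, 162, 161 and 252 (-1.47 ± 0.16, adjusted p = 2.1e-06). Among gasdermins and caspases, Gsdmd rose (0.53 ± 0.09, adjusted p = 6.4e-05) and Casp6 fell (-0.78 ± 0.08, adjusted p = 1.2e-06), with 3 rises and 4 falls in 23 genes (5 and 2 after TMM). Pla2g4a, which frees arachidonic acid, fell from 2368, 2411, 2170.1 and 2215 to 1216, 1028, 1050.1 and 1096 (-1.06 ± 0.09, adjusted p = 2.7e-07). With it, 5 of 20 prostaglandin and leukotriene genes fell and 1 rose (4 and 3 after TMM). That share of falls is near the 28.5% of all genes tested.

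Other transport and enzyme lists had few or mixed calls. Over all genes tested 16.3% rose and 28.5% fell (22.8% and 22.5% after TMM). Slc39a8, a zinc and manganese importer, was at 924, 905, 938 and 935 in naive and 417, 305, 386 and 494 in DSS (-1.23 ± 0.13, adjusted p = 1.5e-06), and the zinc sensor Mtf1 rose (0.66 ± 0.10, adjusted p = 4e-05), in a list of 12 with 3 rises and 3 falls (4 and 3 after TMM). The metallothioneins Mt1 and Mt2 varied too much to be called, with Mt1 at 2829.8, 2338, 1549 and 6971 in naive and 5257, 11708, 3801 and 2591 in DSS. Of 32 xenobiotic genes 7 rose and 7 fell (9 and 6 after TMM), among them Nat2, which fell (-0.67 ± 0.10, adjusted p = 4e-05), and Cyp27a1, which rose (0.54 ± 0.09, adjusted p = 0.00013). Of 15 genes of arginine and polyamine metabolism 6 fell and 1 rose (4 and 3 after TMM). Odc1, the first enzyme of polyamine synthesis, was at 1167, 1319.6, 1484 and 1295 in naive and 839, 603, 798 and 843 in DSS (-0.78 ± 0.12, adjusted p = 5.3e-05).

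Markers of smooth muscle rose, and those of several other stromal and serosal cells fell. Of 11 smooth muscle genes 9 rose (10 after TMM). Smtn, smoothelin, was at 4341, 4075, 5847 and 4098 in naive and 8069.9, 6936, 8413 and 7986 in DSS (0.79 ± 0.11, adjusted p = 1.5e-05), and enteric actin Actg2 at 17256, 19058, 27046 and 20154 in naive and 33475, 30387, 36554 and 31518 in DSS (0.68 ± 0.12, adjusted p = 0.00022). Among neurons and glia 6 of 14 rose (7 after TMM), for example Uchl1 (0.49 ± 0.08, adjusted p = 0.00011) and Nos1 (0.59 ± 0.12, adjusted p = 0.00038). All 5 mesothelial genes fell under either scaling, with DSS 4 nearest to naive (91.5% of the naive mean against 37.6% to 49.1% in the others). Upk1b was at 134, 167, 152 and 146 in naive and 54.4, 32.1, 51.4 and 119.8 in DSS (-1.36 ± 0.27, adjusted p = 0.00046). Adipocyte genes fell in 7 of 8 (7 fell and 1 rose after TMM). The mean pancreatic, fat and mesothelial sums were lower with DSS, although naive 2 lay within the DSS range for the pancreatic sum and DSS 4 within the naive range for the mesothelial sum. In naive 2 and the DSS libraries most of the pancreatic sum was Cela1. For every other acinar gene tested naive 2 lay above all DSS libraries, such as Prss2 at 13.5 against 1.77 or less. Their part in the results for other lists was not tested, beyond the fit without the naive libraries 3 and 4.

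In connective tissue 6 of 11 fibroblast markers fell under either scaling. Cd34 was at 2158, 1494, 1533 and 1671 in naive and 1191, 967, 985 and 1007 in DSS (-0.71 ± 0.13, adjusted p = 0.00034), and naive 1 was high. Of 26 collagen and matrix genes 8 fell and 1 rose (8 and 3 after TMM), beside 28.5% and 16.3% over all genes tested. After TMM those shares were 22.5% and 22.8%. Col8a1, a short-chain collagen, was at 939.9, 949, 1004 and 1015 in naive and 464, 394, 436 and 569 in DSS (-1.08 ± 0.12, adjusted p = 2.3e-06), and Lox, which crosslinks collagen, fell (-0.92 ± 0.22, adjusted p = 0.0018). Of the fibrillar chains, Col3a1 fell from 23298, 17509, 17211 and 19799.8 to 15112, 8836, 11524 and 12245 (-0.72 ± 0.25, adjusted p = 0.032), but the call ended without DSS 2, DSS 3, DSS 4, naive 1 or naive 4, with an adjusted p of up to 0.093. Col5a2 fell as well (-0.72 ± 0.16, adjusted p = 0.0019), whereas Col1a1 was not called (-0.27 ± 0.22, adjusted p = 0.35). Fibronectin Fn1 rose (0.53 ± 0.18, adjusted p = 0.024), although the call ended without DSS 3, DSS 4 or naive 2, with an adjusted p of up to 0.073. Of 24 matrix proteases and inhibitors 5 rose and 5 fell under either scaling, beside the same shares of all genes tested (16.3% and 28.5%, or 22.8% and 22.5% after TMM). Mmp15 rose from 3259, 3220.5, 3072 and 4484 to 6754, 6711, 6577 and 5367 (0.87 ± 0.12, adjusted p = 1.9e-05) and Mmp13 fell from 209, 195, 151 and 98.2 to 53.4, 38.2, 70.9 and 64.7 (-1.49 ± 0.33, adjusted p = 0.0017). The inhibitor Timp1, often raised in colitis, fell from 87.6, 115, 93.2 and 70.3 to 43.3, 36.7, 52.3 and 60.9 (-0.91 ± 0.20, adjusted p = 0.001). The lymphatic marker Mmrn1 (-1.05 ± 0.11, adjusted p = 1e-06) fell, with 4 of 6 lymphatic genes (3 after TMM), whereas 2 of 13 genes of blood endothelium fell and 1 rose (0 and 2 after TMM).

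Eosinophil genes and most macrophage genes fell, and most lymphocyte genes did not pass the test. All 4 eosinophil genes tested fell under either scaling, including the chemokine receptor Ccr3, at 26.9, 18.3, 29.5 and 18.6 in naive and 1.01, 0, 0.89 and 0.95 in DSS (-3.85 ± 0.47, adjusted p = 5e-06), and Prg2, major basic protein (-1.84 ± 0.36, adjusted p = 0.00036). Of 16 macrophage and monocyte genes 11 fell (10 after TMM), with the list at 80.7% to 118% of its naive mean in naive and 60.2% to 65.3% in DSS. The scavenger receptor Cd163 was at 287, 372, 330.4 and 456 in naive and 94.7, 129, 111 and 143 in DSS (-1.59 ± 0.25, adjusted p = 8.1e-05). Of 9 mast cell genes 5 fell under either scaling, for example Tpsb2 (-1.97 ± 0.38, adjusted p = 0.00034) and Cma1 (-0.99 ± 0.29, adjusted p = 0.008). For Cpa3 the call ended without DSS 2, DSS 4 or naive 4, with an adjusted p of up to 0.11, and for Fcer1a the call ended without DSS 1, DSS 3, DSS 4, naive 3 or naive 4, with an adjusted p of up to 0.14. Of 10 dendritic cell genes 3 fell under either scaling, a share close to the 28.5% of all genes tested, and one of them was Clec9a of cross-presenting cells (-1.06 ± 0.22, adjusted p = 0.00068). Il1rl1, the IL-33 receptor, fell from 112, 187, 274 and 172 to 31.2, 20.6, 44.3 and 46.6 (-2.35 ± 0.41, adjusted p = 0.00034). Of 12 B and plasma cell genes 4 fell (4 fell and 1 rose after TMM), namely the plasma cell genes Tnfrsf17, Jchain, Mzb1 and Xbp1, the last of which is also active in other secretory cells. Tnfrsf17, a survival receptor, was at 116, 87.7, 109.7 and 89.9 in naive and 17.1, 21.4, 31 and 17.1 in DSS (-2.2 ± 0.25, adjusted p = 2.5e-06), and Jchain, which joins secreted IgA, at 43020.4, 30273, 39109 and 30821 in naive and 5948, 6105, 7474 and 6252 in DSS (-2.46 ± 0.23, adjusted p = 3e-06). The B cell genes Cd79a and Ms4a1 were not called. Cd79a, a part of the B cell receptor, was at 334, 389, 425 and 148 in naive and 188, 418, 589 and 281 in DSS. Cd79a and Ms4a1 were each highest in DSS 3 and low in naive 4 and DSS 1, with overlapping groups and no call. Of 15 T and NK cell genes 2 fell under either scaling, Klrd1 (-1.21 ± 0.24, adjusted p = 0.00045) and Itgae (-0.74 ± 0.16, adjusted p = 0.00092). Tuft cell genes fell in 7 of 18 (5 after TMM), beside 28.5% over all genes tested (22.5% after TMM). Rgs13 led them (-1.11 ± 0.22, adjusted p = 0.00038), while Dclk1 (-0.1 ± 0.13, adjusted p = 0.57) and Pou2f3 (-0.18 ± 0.20, adjusted p = 0.51) were not called.

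**Figure D5:**
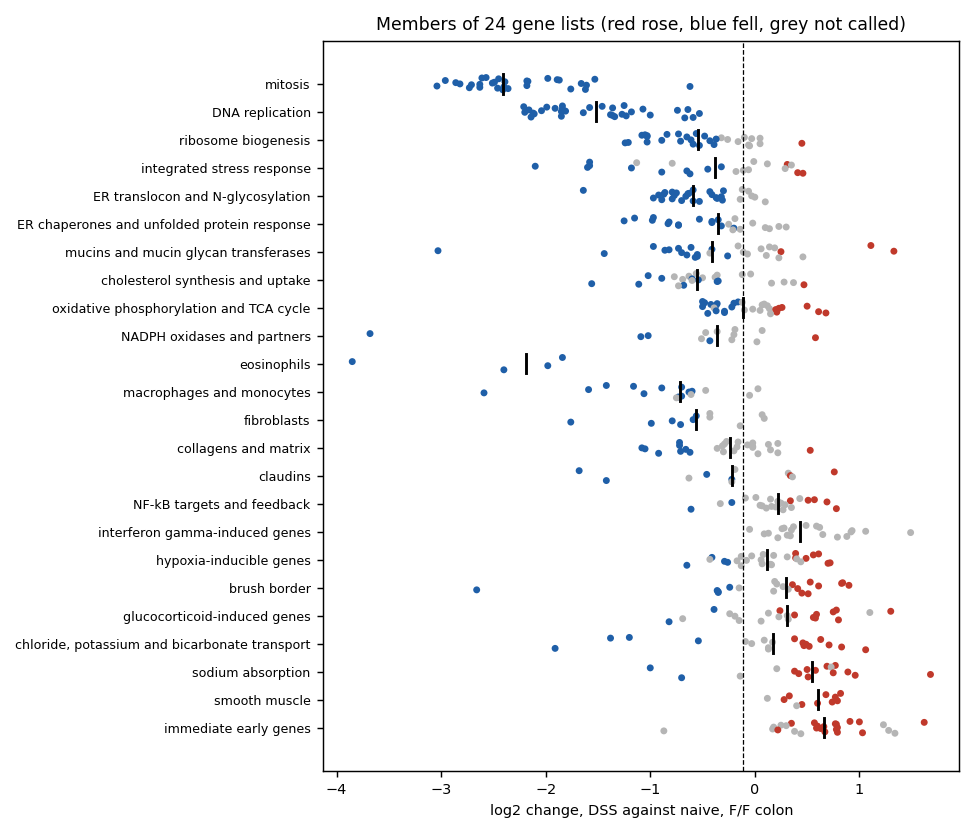
Log2 change with DSS in F/F colon of each tested member of 24 gene lists (points), with the list's median as a black bar. Red points rose, blue points fell and grey points were not called (limma adjusted p under 0.05), and the dashed line marks the median of all genes tested, -0.11. Mitosis and eosinophil genes lie furthest below 0, with DNA replication next, and smooth muscle and immediate early genes lie above it.

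Several of the largest rises belong to none of these groups. Nccrp1, a lectin-like F-box protein, was at 98.8, 108, 67.3 and 33.1 in naive and 322, 209, 364 and 288 in DSS (2.04 ± 0.30, adjusted p = 5.3e-05). Methig1 (2.33 ± 0.43, adjusted p = 0.00066) and Mettl7a2, at 226, 105, 86.1 and 124 in naive and 362, 1035, 557 and 395 in DSS (2.08 ± 0.36, adjusted p = 0.00039), rose, and both were highest in DSS 2 among DSS and in naive 1 among naive libraries. In the deposited table both genes start at the same position and their spans overlap, so the split of reads between them is uncertain. Adamts15, a protease of proteoglycans, was at 1523, 806, 775 and 895 in naive and 5202, 1887, 2679.8 and 2007 in DSS (1.49 ± 0.35, adjusted p = 0.0038), with DSS 1 far above the others. Cpn2, a subunit of carboxypeptidase N, was at 83.1, 74.2, 101 and 85.8 in naive and 276, 196, 237 and 296 in DSS (1.52 ± 0.18, adjusted p = 3.1e-06), an even change across pools, and the catalytic subunit Cpn1 fell from 223, 299.8, 465 and 331 to 42.3, 35.9, 43.4 and 59 (-2.81 ± 0.25, adjusted p = 4.6e-07).

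The F/F response was set beside that of DIEC colon only as a test of the difference. By limma 664 genes differed in their DSS change between genotypes (3.63%), but 117 did after TMM rescaling and 126 by edgeR, and 106 were called in all 3 ways. Leaving out 1 F/F library moved the limma count to between 155 (without naive 2) and 1661 (without DSS 2). In 84 of the 106 the absolute log2 change was smaller in F/F than in DIEC colon, whatever its direction. Among genes named above, Cftr fell less in F/F (log2 change -1.2) than in DIEC colon (-2.73; interaction adjusted p = 0.0094), and Mlxipl did likewise (-0.88 against -2.15; interaction adjusted p = 0.0015). Krt36, a keratin, was at 67.4, 81.9, 67.3 and 53.7 in naive and 53.4, 42.8, 118 and 73.2 in DSS F/F libraries, with overlap, and its log2 change in DIEC colon was 3.11 (interaction adjusted p = 0.0057).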

How the data were processed

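Colon RNA of F/F mice, water or DSS, was sequenced in 4 libraries a group, each a pool of 3 mice. Per the submitters' processing notes, HOMER 4.9, STAR 2.2.0c, bcl2fastq and build mm10 were used, whereas the table's header names HOMER and mm9. Coordinates are printed as the table gives them, under mm9. The header gives the counting a strand option, whereas standard kits of the kind that the labels name keep no strand information, so values of overlapping and antisense genes are uncertain.

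The deposited values are a signal per gene, reads divided by 1 factor per library, and the authors scaled each F/F library to a sum of 26554082 to 26554089. Dividing by the value of 1 read gave whole reads (within 0.01) for 100% of the values checked. The authors' deposited comparison of the same groups gives log2 fold changes and p-values with adjusted p-values, made with a tool not given in the sources used here, and was read only to count its calls. It called 3713 genes higher and 3666 lower, of which 6509 had the same direction and a call here and 0 the opposite one.

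Groups were compared with limma 3.58.1 under R 4.3.3 (trend and robust settings, two-sided, Benjamini-Hochberg adjusted p under 0.05) on log2(value + 1), with all 16 libraries and 1 mean per group. Genes were tested if 4 or more libraries reached a value of 1. Log2 changes are on the log2(value + 1) scale, which understates those of low genes, and are given with their standard error. TMM rescaling and tests on recovered reads (edgeR 4.0.16, DESeq2 1.42.0, voom) were alternatives.

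Genes were named by a rule: the 12 largest rises and falls among called genes with groups that do not overlap and a higher mean of at least 100, up to 4 called members of each of 40 pathway lists and up to 3 of each of 19 cell marker lists by smallest adjusted p. Genes beyond it were chosen after their values were seen, and a few genes that the rule or the lists gave are not reported here. Members, lists and tests were chosen with earlier results of these data known. Gene symbols turned into dates by a spreadsheet, 27 in all, were restored from the table's identifiers. Intervals between pools say nothing of single mice.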

Additional observations from a re-analysis of the deposited data

Results flagged for a closer look

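Among 494 groups of 4 libraries examined for the genes and list sums of the text, 35 held 1 library farther from the rest than Dixon's 95% critical value for 4 samples allows. Chance flags about 1 in 20 groups. In naive 1, the values that stood apart as the highest were Adamts15 at 1523, Casp6 at 1092 and Id2 at 1143, and as the lowest Cdx1 at 5173 and Noxa1 at 1952. In naive 2, the values that stood apart as the lowest were Bysl at 348. In naive 3, the values that stood apart as the highest were Muc1 at 446, Smtn at 5847 and Spcs3 at 4243, and as the lowest Hdc at 10.6 and Nat2 at 978. In naive 4, the values that stood apart as the highest were Cpa3 at 90.9, Mcpt1 at 927, Mmp15 at 4484, Mt2 at 3250.2, Myo1a at 18751, Ppp1r15a at 667 and Ptch1 at 758, and as the lowest Clu at 1301. In DSS 1, the values that stood apart as the highest were Egfr at 926, and as the lowest Aqp8 at 23333 and Osgin1 at 1102. In DSS 2, the values that stood apart as the highest were Cdhr5 at 33208, Rsad2 at 3014 and Ubd at 982, and as the lowest Ccr3 at 0, Cftr at 1727 and Col5a2 at 1322. In DSS 3, the values that stood apart as the highest were S100a9 at 6.2. In DSS 4, the values that stood apart as the highest were Nat2 at 750.3, and as the lowest Mmp15 at 5367, Nfkb2 at 1321 and Ogdh at 12205. Of the list sums, the interferon gamma list in DSS 2 (214% of the naive mean) and the mesothelium list in naive 4 (125%) stood apart as the highest.

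A difference in DSS change between F/F and DIEC colon passed the interaction test of limma for 13 genes of the text. The F/F fall was the smaller one for A4gnt (log2 change -3.22 against -6.43, adjusted p = 0.032), Cftr (-1.2 against -2.73, adjusted p = 0.0094), Cldn2 (-1.68 against -3.86, adjusted p = 0.037), Mlxipl (-0.88 against -2.15, adjusted p = 0.0015) and Noxa1 (-1.02 against -1.68, adjusted p = 0.047). The nucleolar genes Dkc1 (-1.21 against -1.88, adjusted p = 0.038) and Npm1 (-0.84 against -1.4, adjusted p = 0.027) followed the same order. Cpn2 rose less in F/F (1.52 against 2.55, adjusted p = 0.033), and Cdx1 rose in F/F but was not called in DIEC colon (0.6 against 0.14, adjusted p = 0.044). Krt36 (0 against 3.11, adjusted p = 0.0057), Muc13 (0.14 against 0.88, adjusted p = 0.014) and Tnf (0.29 against 1.72, adjusted p = 0.018) were not called in F/F. Timp1 fell in F/F (-0.91) and was not called in DIEC colon (0.3, adjusted p = 0.029). Under TMM rescaling and edgeR, the difference kept its call in both for Cftr, Cpn2, Krt36, Mlxipl, Muc13, Timp1 and Tnf.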

How the results depend on the processing

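Of the 240 genes named in the text, 203 kept their direction and their side of the threshold under every alternative, and in none of the alternatives run did a called gene change sign. The count of genes changed with DSS stayed within 1.5 times of 8187 except with a fold of at least 1.5 required as well, which left 3447. The count of genes whose DSS change differed between genotypes, 664, was unstable: it was 117 after TMM rescaling, 115 with DESeq2 size factors, 126 with edgeR, 111 with voom and 213 without trend and robust settings. Leaving out 1 F/F library gave 155 to 1661 such genes, and leaving out both naive libraries richest in pancreatic reads, an alternative chosen after seeing the data, gave 78. The E2F motif was in 6 instead of 11 promoters of the replication list when the window ended at the start site. The cause was not tested for these, beyond the shorter window and the added criterion themselves. Same-numbered naive and DSS libraries correlated at 0.067, -0.065, 0.007 and -0.136 in their deviations from the group means. Pairs with different numbers ranged from -0.22 to 0.199. With 4 libraries a group these values cannot exclude a pairing or batch that follows the replicate numbers. With the replicate block 1247 genes differed between genotypes, and 3209 rose and 5414 fell in F/F. Genes at a few reads, such as Ccr3 with DSS, rest on counts near 0.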
